A study of Mus musculus with 6 samples.

Results

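The insulin-like growth factor axis is read here through 10 genes: the ligands Igf1 and Igf2, the receptors Igf1r, Igf2r and Insr, the adaptors Irs1 and Irs2, and the extracellular regulators Pappa, Stc1 and Stc2. They are 10 of the 18193 genes measured. The genes were listed by name, and the probe set that leads for each gene was chosen by its mean intensity over the 6 arrays, which does not use genotype. Between them they have 26 probe sets annotated to 1 of these symbols alone. The arrays held RNA of 6 clones of mouse embryonic fibroblasts that immortalized spontaneously. The clones labelled E, H and J came from FHL2-/- mice and lack the LIM-domain adaptor protein FHL2, and the clones labelled E, F and I were wild type. No treatment is named for either genotype, and the sources used here give no strain, passage or embryonic age. Each array is 1 clone, and the labels call the clones biological replicates without saying whether they came from separate embryos. The p-values therefore set the difference between genotypes against the spread between clones.

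IGF1 and IGF2 are small secreted hormones that signal through the tyrosine kinase receptor IGF1R and, for IGF2, also through the insulin receptor, and the IRS proteins carry that signal to PI3 kinase and Akt. IGF2R binds IGF2 without signalling in the same way and sends it to lysosomes. Outside the cell most IGF is held by binding proteins, the protease PAPP-A (encoded by Pappa) cleaves some of these and frees the ligand, and the stanniocalcins STC1 and STC2 inhibit PAPP-A. Igf2 and Igf2r are imprinted genes, each expressed mainly from 1 parental copy.

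All values are log2 intensities, and differences are knockout minus wild type with the standard error (SE) of a limma fit over all genes, n = 3 clones per genotype. Readings of single clones are listed in the order E, H, J for knockouts and E, F, I for wild types. A gene is called higher or lower, or said to rise or fall, where the adjusted p of that fit lay under 0.05. Fhl2 itself read 6.01, 6.44 and 6.57 in the knockouts against 9.88, 8.57 and 9.64 in the wild types, without overlap, and differed by -3.02 (SE 0.35, adjusted p = 0.00400). Knockout clone H stood apart: its correlation with the other knockout clones over 18193 genes was 0.964 and 0.968, against 0.991 between those clones, and it read Xist, the RNA of an inactive X chromosome, at 9.82 against 4.69 to 5.11 in the other clones. Array medians lay at 4.52 to 4.54 for the knockouts and 4.44 to 4.46 for the wild types. The 3' minus 5' reading of Gapdh, a sign of RNA quality, was -0.119 to -0.045 for the knockouts and -0.041 to 0.052 for the wild types, while that of actin was 0.103 to 0.235 and 0.0929 to 0.133; the part of these in the results was not tested. Wild type clone E is deposited with more decimals than the other clones, and whether it was processed together with them is not stated. Without it, Igf1 (4.47), Igf2 (4.57) and Irs1 (1.17) were still called and Pappa, Stc1 and Stc2 were not. All 11 fibroblast markers read above the median gene in both genotypes, while 6 of 6 skeletal muscle and 5 of 7 macrophage markers read below it in both. The mean of the fibroblast markers was 11.96 to 12.10 for the knockouts and 10.91 to 11.65 for the wild types. Of these markers 4 were higher (Lum by 4.81) and 2 lower (Thy1, -1.34, and Pdgfrb, -0.64). The other 5 were not called, among them Col1a1, Col1a2, Vim and Fn1. The mean of 7 epithelial markers was 4.37 to 4.50 and 4.86 to 5.06, with Krt19 lower (-3.05) and Epcam higher. That of 5 neural markers was 4.55 to 5.20 and 5.34 to 5.68, with Tubb3 (-3.20) and Nes lower. That of 5 adipocyte markers was 4.96 to 6.63 and 4.98 to 5.22, with Cebpa higher by 4.60, Fabp4 lower (-1.93) and Adipoq near the bottom of the scale in all 6 clones. That of 6 endothelial markers was 4.81 to 5.79 and 4.18 to 4.84, with Tek higher by 4.27, and that of 5 chondrocyte and osteoblast markers was 4.78 to 6.39 and 4.500 to 4.799, with none called. Tek read 8.36, 4.68 and 8.91 in the knockouts. Of the markers named with a call, Krt19 and Cebpa kept it in all 6 fits that leave out 1 clone. Fabp4 was called in 3, Lum, Thy1 and Nes in 2, and Tek, Tubb3, Epcam and Pdgfrb in 1. The part of these markers in the results was not tested.

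Of the 10 genes, 4 were higher in knockout clones (Igf1, Igf2, Irs1 and Pappa), 2 were lower (Stc1 and Stc2) and 4 were not called (Igf1r, Igf2r, Insr and Irs2). Of all 18193 genes tested, 3464 (19%) were called, 1644 (9.04%) higher and 1820 (10%) lower. The genes were listed with earlier results of these clones known, so their share is a description and is not read against that background. The genotypes did not overlap in the 6 called genes and overlapped in the other 4, where 38.9% of all genes had no overlap. The median difference of the 10 genes was -0.19, against 0.04 over all genes. Both ligands moved further than any other of the 10 genes.

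**Figure D1:**
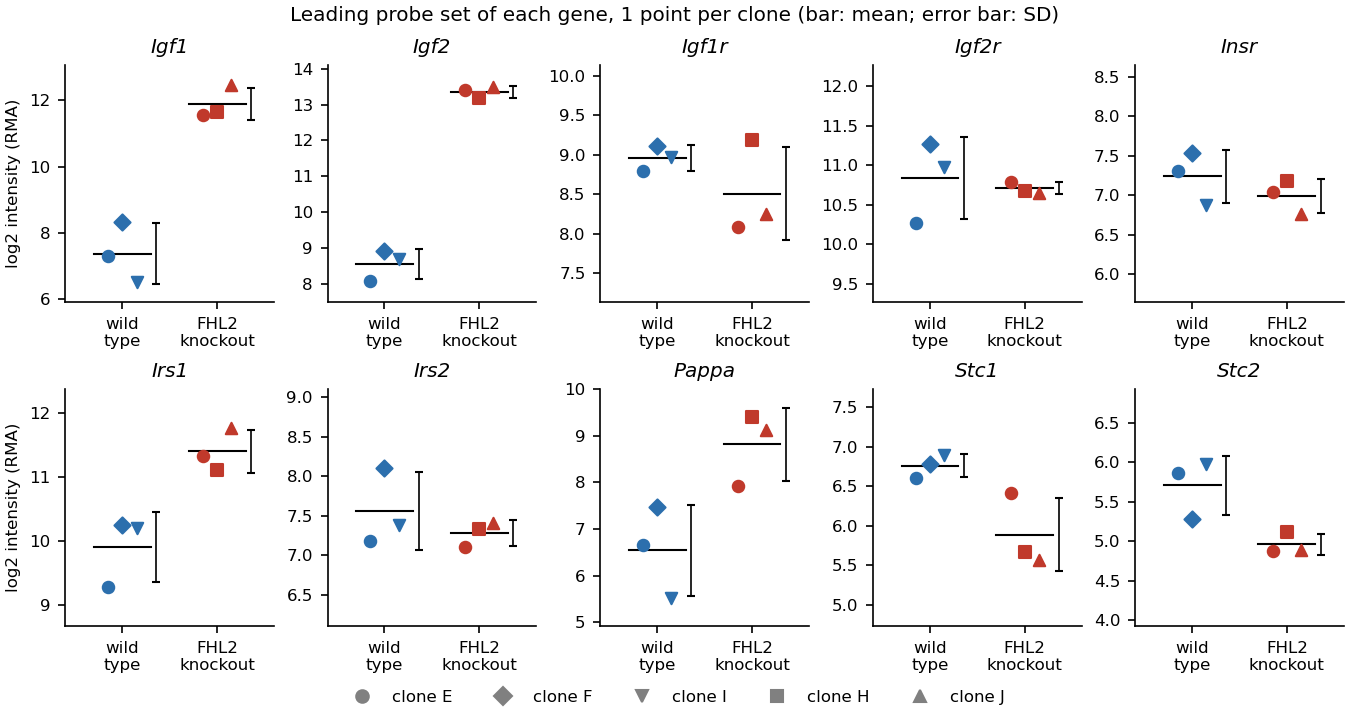
Log2 intensity of the leading probe set of each of the 10 genes (y axis, scaled per gene and never spanning less than 3 log2 units) in the 3 wild type and 3 FHL2 knockout clones, with the mean as a bar and the SD as an error bar. Igf1, Igf2, Irs1 and Pappa are higher in every knockout clone than in every wild type clone, and Stc1 and Stc2 are lower in every knockout clone. The reading of Igf1r in knockout clone H (9.19) lies above those of all wild type clones.

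Igf2, a ligand of fetal growth, showed the largest difference of the 10 genes. Its leading probe set read 13.4, 13.2 and 13.5 in the knockouts against 8.09, 8.90 and 8.68 in the wild types. The knockout clones all lay far above the wild type clones, and each of the 9 knockout-to-wild-type pairs differed by 4.27 to 5.41. The means were 13.4 ± 0.169 and 8.56 ± 0.422 (SD, n = 3), a difference of 4.81 (SE 0.22, adjusted p = 3.76e-04) or 28.0-fold. Only 5 genes had a higher mean in knockout clones, and the highest reading on any array was 13.6 to 13.7, so Igf2 was read close to the top of the scale there. The second probe set of Igf2 read lower throughout, at 9.84, 9.15 and 9.94 in the knockouts and at 3.62, 4.08 and 3.68 in the wild types. It gave a difference of 5.85 (SE 0.24, adjusted p = 2.21e-04 with every probe set tested), or 57.8-fold, with the wild type readings near the bottom of the scale. Both probe sets separated the genotypes completely, and the size of the rise depended on which was read.

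Igf1, the other ligand, rose almost as far. Its leading probe set read 11.6, 11.6 and 12.5 in the knockouts against 7.29, 8.32 and 6.51 in the wild types. Clone J was highest among the knockouts, and the wild type clones were spread over 1.81, with F highest and I lowest. The means were 11.9 ± 0.494 and 7.38 ± 0.909 (SD, n = 3), a difference of 4.51 (SE 0.48, adjusted p = 0.00311) or 22.8-fold. The closest pair, knockout clone E and wild type clone F, still differed by 3.24, and the farthest pair by 5.94. All 4 probe sets of Igf1 rose, by 3.43 to 4.51, and all 4 put the wild type clones in the same order. Both ligands were called when any 1 of the 6 clones was left out, with Igf2 between 4.57 and 4.98 and Igf1 between 4.08 and 4.98. Without knockout clone H they differed by 4.90 and 4.63.

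Since both ligands rose together, the sequence before their start sites is shown, from RefSeq on GRCm38.p6, as the 250 bases upstream of the start, 5′ to 3′ on the gene's strand. Of the 10 genes, 7 had an entry, with 10 windows in all. Capitals mark matches, on either strand, to 6 motifs. Among them are the TATA box (TATAAA), the CCAAT box (CCAAT) and the GC box (GGGCGG). The others are a loose AP-1 pattern (TGANTCA), the forkhead site (GTAAACA) and the E-box (CACGTG). AP-1 is among the factors that FHL2 binds, and forkhead sites are bound by the FoxO factors that Akt restrains. Over 32851 windows of the same length the shares with at least 1 match were 12.4%, 33.8%, 32.7%, 6.75%, 3.17% and 6.02% in that order, and in the windows of these genes no 2 matches of different motifs overlapped. Igf1 has 1 window, chr10:87860861-87861110 on the plus strand, and Igf2 has 4, of which the 1 farthest downstream, chr7:142657497-142657746 on the minus strand, held the most matches.
Igf1: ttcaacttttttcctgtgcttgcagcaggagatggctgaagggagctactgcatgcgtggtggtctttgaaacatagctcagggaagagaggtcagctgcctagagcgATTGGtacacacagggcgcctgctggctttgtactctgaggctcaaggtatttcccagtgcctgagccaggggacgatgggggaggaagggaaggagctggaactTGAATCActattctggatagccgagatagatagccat
Igf2: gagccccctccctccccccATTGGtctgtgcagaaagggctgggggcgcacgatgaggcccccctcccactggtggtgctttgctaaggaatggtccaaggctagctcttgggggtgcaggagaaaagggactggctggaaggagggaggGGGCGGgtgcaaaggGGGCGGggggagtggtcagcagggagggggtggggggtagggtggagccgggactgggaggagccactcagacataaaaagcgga

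The Igf1 window held 1 match to the loose AP-1 pattern, in which N stands for any base. It reads TGAATCA, with A at that open base, and begins 37 bases before the start. It matches the loose pattern only and is not shown to be an AP-1 site. The same window held 1 CCAAT box and no GC box. The Igf2 window held 1 CCAAT box and 2 GC boxes, which begin 100 and 85 bases before the start, and no AP-1 match. None of the other 3 Igf2 windows held an AP-1 match either, and 1 of them held 1 GC box. Igf1 had 5 CG pairs in its window and the Igf2 window shown had 6, the median over all windows, while the other Igf2 windows had 1, 10 and 22. A match is a match of letters, and which Igf2 start the clones used cannot be read from a probe set.

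**Figure D2:**
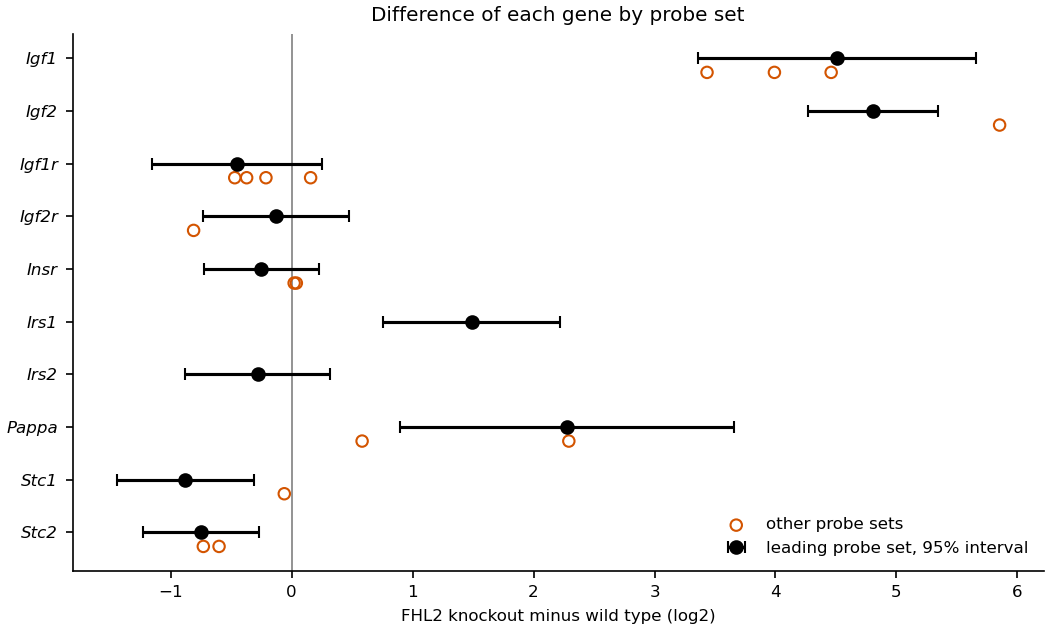
Difference between FHL2 knockout and wild type clones (x axis, log2) for each of the 10 genes: the filled point is the leading probe set with the 95% confidence interval of the limma fit, and open circles are the other probe sets. All probe sets of Igf1 and Igf2 lie between 3.43 and 5.85, whereas those of Igf1r, Igf2r and Insr lie between -0.81 and 0.16.

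None of the receptors was called by its leading probe set. Igf1r, the main signalling receptor, read 8.09, 9.19 and 8.25 in the knockouts against 8.79, 9.11 and 8.98 in the wild types. Clones E and J were below every wild type clone and clone H was above every one, so the knockout SD (0.592) was larger than the wild type SD (0.160). The difference was -0.45 (SE 0.29, adjusted p = 0.338), with a 95% interval of -1.15 to 0.25. Without knockout clone H it was -0.79 (adjusted p = 0.00846) and was called, where 26.1% of all genes were called without that clone. The probe sets that read Igf1r at 7.88 and above on average all gave this split of the knockout clones, and 4 of its 5 probe sets had a difference below 0, to -0.47 at most.

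Igf2r, which clears IGF2, read 10.8, 10.7 and 10.6 in the knockouts against 10.3, 11.3 and 11.0 in the wild types. The knockout clones lay within 0.142 of each other, inside the wild type range. The difference was -0.13 (SE 0.25, adjusted p = 0.769), with a 95% interval of -0.74 to 0.48. The second probe set of Igf2r was lower in every knockout clone, at 8.38, 8.03 and 8.42 against 8.88, 9.27 and 9.10, and differed by -0.81 (SE 0.16, adjusted p = 0.0185 with every probe set tested). Both probe sets of Igf2r were lower on average in the knockouts, and they differed in size and in call.

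Insr, the insulin receptor gene, read 7.04, 7.17 and 6.76 in the knockouts against 7.31, 7.53 and 6.88 in the wild types. The groups overlapped, and the difference was -0.25 (SE 0.20, adjusted p = 0.441), with a 95% interval of -0.73 to 0.23. The other probe sets of Insr read 4.16 and 3.59 on average, low on the scale, and differed by 0.04 and 0.02.

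Of the adaptors, Irs1 rose and Irs2 was not called. Irs1, the adaptor through which IGF1R and the insulin receptor reach PI3 kinase, read 11.3, 11.1 and 11.8 in the knockouts against 9.28, 10.2 and 10.2 in the wild types. Every knockout clone was above every wild type clone, the lowest by 0.86, and wild type clone E was lowest of all 6. The difference was 1.49 (SE 0.30, adjusted p = 0.0206), or 2.81-fold. It was 1.53 without knockout clone E and 1.30 without knockout clone J, where the call was lost (adjusted p = 0.0570 and 0.0690), and 1.64 without knockout clone H. Irs2, its close relative, read 7.10, 7.33 and 7.41 in the knockouts against 7.18, 8.11 and 7.39 in the wild types. Wild type clones E and I lay within the knockout range, and F lay above it. The difference was -0.28 (SE 0.25, adjusted p = 0.490), with a 95% interval of -0.88 to 0.32. Without wild type clone F it was -0.006. Each adaptor has 1 probe set.

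The window before the Irs1 start, chr1:82291440-82291689 on the minus strand of GRCm38.p6, is shown because Irs1 rose with the ligands. It held 28 CG pairs, at percentile 92.4 of all windows, with 2 GC boxes and 1 E-box and no AP-1, forkhead, CCAAT or TATA match.
Irs1: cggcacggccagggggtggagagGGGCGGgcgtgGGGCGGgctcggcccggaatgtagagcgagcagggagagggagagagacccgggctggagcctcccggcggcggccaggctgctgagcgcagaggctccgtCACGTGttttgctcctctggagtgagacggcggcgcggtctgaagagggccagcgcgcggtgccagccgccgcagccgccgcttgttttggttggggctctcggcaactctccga

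The window of Irs2 had 34 CG pairs, and those of Igf1r and Igf2r had 42 and 27. Both adaptor windows held an E-box, as did that of Igf2r with 2. The only match to the loose AP-1 pattern in the 10 windows was that of Igf1, and none held a forkhead or TATA match.

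Among the extracellular regulators, the protease gene Pappa rose and both genes of its inhibitors fell, with calls that depended on single clones. Pappa read 7.93, 9.41 and 9.12 in the knockouts against 6.65, 7.46 and 5.52 in the wild types. The groups did not overlap, but knockout clone E and wild type clone F were only 0.47 apart, while the farthest pair differed by 3.89. The difference was 2.28 (SE 0.58, adjusted p = 0.0390), or 4.84-fold. The second of its probe sets gave 2.29 and the third, which read 4.01 on average, gave 0.58. The call was lost when knockout H (1.98, adjusted p = 0.0540), knockout J (2.13, 0.123), wild type E (2.33, 0.114) or wild type I (1.76, 0.0863) was left out.

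Stc1, a secreted inhibitor of PAPP-A, read 6.41, 5.67 and 5.56 in the knockouts against 6.61, 6.78 and 6.89 in the wild types. Every knockout clone was below every wild type clone, but clone E by as little as 0.193. The difference was -0.88 (SE 0.24, adjusted p = 0.0473), or 1.84-fold lower. The other probe set of Stc1 read 3.80 on average and differed by -0.06. The call of Stc1 was kept without knockout clone E (-1.14, adjusted p = 0.0111) and lost when knockout H (-0.77, 0.0699) or J (-0.72, 0.138), or wild type E (-0.95, 0.106), F (-0.87, 0.125) or I (-0.81, 0.134), was left out.

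Stc2, the related inhibitor, read 4.87, 5.11 and 4.89 in the knockouts against 5.86, 5.28 and 5.98 in the wild types. Every knockout clone was below every wild type clone, the closest pair by 0.168. The difference was -0.75 (SE 0.20, adjusted p = 0.0458), or 1.68-fold lower, from a level below the middle of the scale in both genotypes. The other probe sets of Stc2 gave -0.60 and -0.73, but in them knockout clone H (5.27 in each) lay within the wild type range and neither was called. The call of Stc2 was lost when knockout E (-0.71, adjusted p = 0.125) or J (-0.72, 0.135), or wild type E (-0.67, 0.147) or I (-0.61, 0.123), was left out. Without knockout clone H it was -0.83 (adjusted p = 0.0352).

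**Figure D3:**
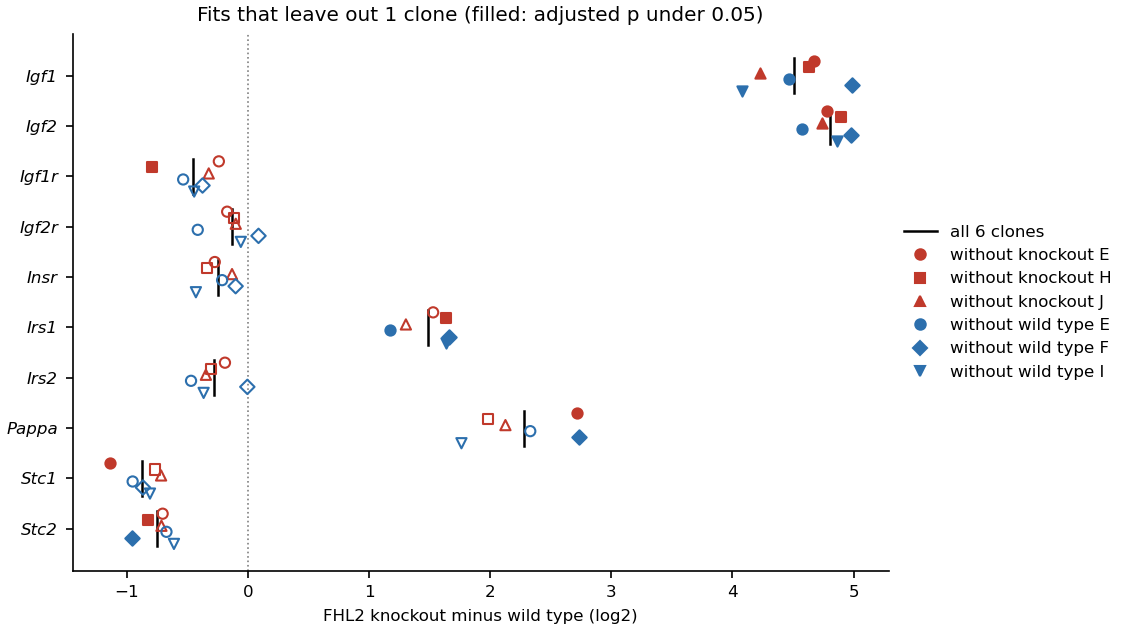
Difference between FHL2 knockout and wild type clones (x axis, log2) for each of the 10 genes with all 6 clones (black line) and in the 6 fits that leave out 1 clone (points, by the clone left out), filled where the adjusted p lay under 0.05. The points of Igf1 and Igf2 are all filled, those of Irs1 in 4 of 6 fits, those of Pappa and Stc2 in 2 and that of Stc1 in 1. Igf1r is filled only without knockout clone H.

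Across clones, Igf1 and Pappa ranked the wild type clones alike, F above E above I, and Igf2 and Irs1 both had wild type clone E lowest. The 3 genes whose centred readings lay closest to those of Igf2 over the 6 clones were Clec11a, a secreted lectin-like growth factor, Rbm45, an RNA-binding protein, and Tmem26, a membrane protein, at root mean square differences of 0.489, 0.501 and 0.501 on the log2 scale. Closest to Igf1 were Lrrc17, a secreted leucine-rich protein (0.392), Pltp, the phospholipid transfer protein (0.487), and Cdo1, the cysteine dioxygenase (0.501). Closest to Pappa were Reck, a membrane-anchored inhibitor of matrix proteases (0.308), Plxdc2, a membrane protein with a plexin domain (0.312), and the protease gene Adamts15 (0.326). These genes were picked for likeness over the same 6 clones, so a shared order of clones follows in large part from the choice, and the pairs share the arrays and the genotype difference.

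**Figure D4:**
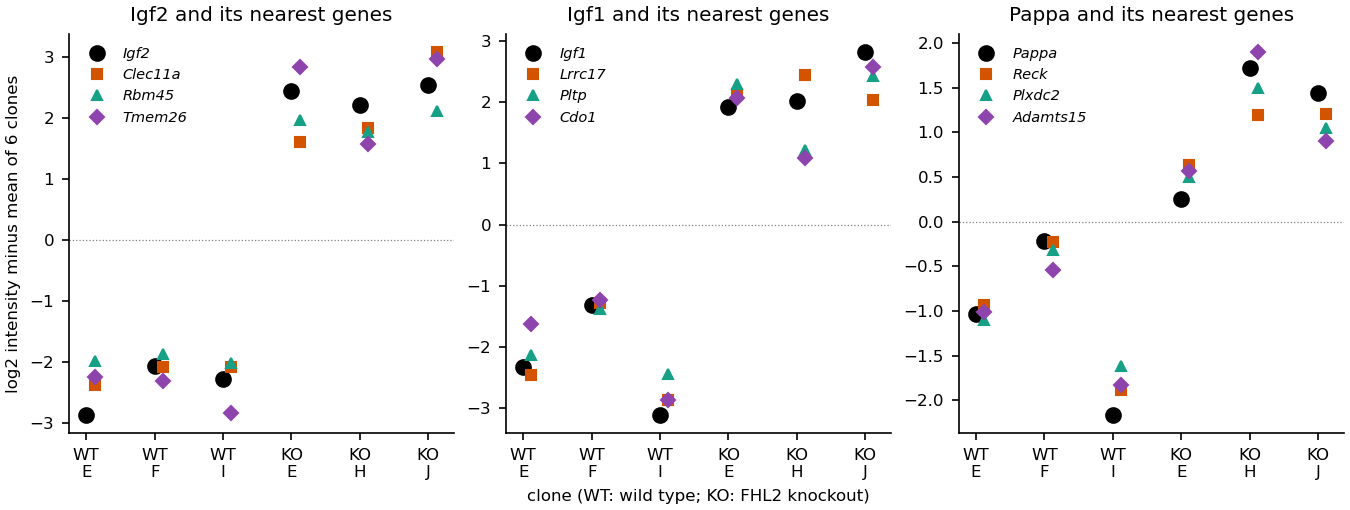
Log2 intensity minus the mean of the 6 clones (y axis) in each clone (x axis) for Igf2, Igf1 and Pappa (black circles) and the 3 genes with the smallest root mean square difference from each. In every panel the knockout clones lie above the wild type clones; the genes were picked for that likeness.

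Genes beside the ligands on their chromosomes showed smaller differences than the ligands themselves, at 0.06 to 0.82 around Igf2 and -0.56 to 0.81 around Igf1. Of the 10 measured genes nearest to Igf2 in RefSeq order, 4 were higher and 0 lower (9.04% and 10% of all genes), with a median difference of 0.37. Of the measured genes nearest to Igf2, Igf2os, an antisense transcript of the Igf2 locus, rose by 0.70 (adjusted p = 0.0140) and Mrpl23 by 0.67 (adjusted p = 0.0283). The insulin gene Ins2 differed by 0.28 (adjusted p = 0.253), and H19 was not read. Of the 10 genes around Igf1, 1 was higher and 1 lower, with a median of 0.13. Around Irs1, 1 was higher, Dock10, by 3.48 (adjusted p = 0.00779), and around Pappa none of 10 was called. Around Igf1r and Insr, which were not called, 3 of 10 and 3 of 5 were higher and 0 lower (medians 0.24 and 0.42). Of 10 each, 1 was higher and 2 lower around Irs2, 0 and 1 around Stc1, 0 and 3 around Stc2, and none was called around Igf2r. The p-values are those of the limma fit.

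The binding proteins of IGF, which hold the ligands outside the cell, moved in both directions. Of 10 measured binding proteins and carriers, 2 rose, 1 fell and 7 were not called (median 0.18), where 9.04% of all genes rose and 10% fell. The median of this list moved to 0.37, 0.49 or 0.72 when knockout E, knockout H or wild type F was left out. It was 0.43 with array weights and 1.53 over the 6 members at or above the median level, and 0.10 with arrays centred on their medians and 0.07 without probe sets that may read several transcripts. Igfbp2 rose by 4.71 (SE 0.40, adjusted p = 0.00177), and Igfbp4, a main substrate of PAPP-A, rose by 2.54 (SE 0.33, adjusted p = 0.00526). Igfbp7, a distant relative that binds IGF weakly, fell by 1.70 (SE 0.27, adjusted p = 0.00993). These 3 calls were kept in all 6 fits that leave out 1 clone, while Igfbp2 and Igfbp4 have no value when probe sets that may read several transcripts are left out. Pappa2, which encodes a related protease, was high in knockout clone J (8.02) and wild type clone F (7.76) and lay at 4.39 to 4.99 in the other clones.

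Of 17 measured insulin genes and receptor adaptors, 2 rose, 2 fell and 13 were not called (median 0.02), where 9.04% of all genes rose and 10% fell. Sos1, the exchange factor that links GRB2 to Ras, fell by 0.84 (SE 0.10, adjusted p = 0.00391) and was called in all 6 fits that leave out 1 clone. Sh2b1, an adaptor of the insulin receptor, rose by 0.59 (SE 0.12, adjusted p = 0.0181), and Crk, an SH2 adaptor, by 0.66 (SE 0.13, adjusted p = 0.0185). The call of Sh2b1 held only without knockout clone H (0.68, adjusted p = 0.00619) and was lost without any of the other 5 clones (0.53 to 0.61, adjusted p = 0.0524 to 0.0667). That of Crk was lost when knockout J (0.59, adjusted p = 0.0680), wild type E (0.71, 0.0505) or wild type F (0.56, 0.0529) was left out. Grb14, which restrains the insulin receptor, fell by 3.43 (adjusted p = 0.0268) and of the 6 fits that leave out 1 clone was called only without knockout clone H. The counts for this list moved with single clones: 1 rose and 2 fell without knockout clone E, 3 rose and 4 fell without knockout clone H, 0 rose and 1 fell when knockout J, wild type E or wild type F was left out, and 1 rose and 1 fell without wild type clone I. Calls over all 18193 genes moved as well, from 3464 with all clones to 2079, 4750 and 1733 without knockout E, H and J. They numbered 1661, 1910 and 2145 without wild type E, F and I. With arrays centred on their medians 2 of this list rose and 5 fell, where 1329 and 2201 of all genes did. Array weights gave 3 rises and 6 falls, where all genes gave 2402 and 2524. Sh2b1 differed by 0.24 (adjusted p = 0.214) when probe sets that may read several transcripts were left out.

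Among 25 measured PI3 kinase, Akt and mTOR genes with their regulators, 7 fell, 0 rose and 18 were not called (median -0.04). Over all genes, 10% fell and 9.04% rose. Phlpp1, a phosphatase that turns off Akt, fell by 0.92 (SE 0.11, adjusted p = 0.00453), the kinase gene Mtor by 0.79 (SE 0.11, adjusted p = 0.00654) and Rheb, the GTPase that activates mTOR complex 1, by 0.73 (SE 0.10, adjusted p = 0.00688). The list holds both activators and inhibitors, and these 3 calls were kept in all 6 fits that leave out 1 clone. Pik3cb also kept its call as lower in all 6 and Eif4ebp1 in 5, while Rictor was called in 2 and Tsc2 in 0. Without wild type clone E, 4 genes of the list fell, and 884 of all genes fell, against 1820 with all clones.

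Of 18 measured FoxO factors and textbook FoxO targets, 3 rose, 2 fell and 13 were not called (median -0.14). Among all genes 9.04% rose and 10% fell. The stress-response gene Gadd45a fell by 2.97 (SE 0.52, adjusted p = 0.0125) and Fbxo32, the ubiquitin ligase atrogin-1, by 1.72 (SE 0.23, adjusted p = 0.00557), while Sesn3, a sestrin that restrains mTOR complex 1, rose by 0.87 (SE 0.13, adjusted p = 0.00726). These 3 genes were called in all 6 fits that leave out 1 clone. The other called rises were Foxo1 (1.05, adjusted p = 0.0233) and Foxo3 (0.60, adjusted p = 0.0221), called in 1 and 2 of those fits. The count of rises was 1 when knockout E or J or wild type E or I was left out, 2 without wild type clone F and 5 without knockout clone H. Rises over all genes, 1644 with all clones, ran from 777 (without wild type E) to 2304 (without knockout H) in such fits. Without knockout H, and likewise without J, 3 of the list fell. Falls over all genes were 2446 without H and 923 without J, against 1820 with all clones.

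Of 9 measured regulators of Igf2 transcription and RNA, 1 rose, 2 fell and 6 were not called (median 0.04). H19 and Igf2bp2 were listed but not read. Among all genes 9.04% rose and 10% fell. Plagl1, an imprinted zinc-finger factor, read 13.0, 12.5 and 13.2 in the knockouts against 9.69, 11.4 and 10.8 in the wild types. It had wild type clone E lowest and F highest, as Igf2 did, and rose by 2.25 (SE 0.43, adjusted p = 0.0163). Hmga2, an architectural chromatin protein of fetal tissue, fell by 2.04 (SE 0.33, adjusted p = 0.00970), and Igf2bp1, which binds Igf2 messenger RNA, fell by 0.92 (SE 0.16, adjusted p = 0.0128). Plagl1 was not called with knockout E (2.20, adjusted p = 0.0535) or J (2.11, 0.0625) left out, so that 0 rose, and that of Igf2bp1 without wild type clone E (-0.92, 0.0543), where 1 fell. Hmga2 was called in every such fit.

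**Figure D5:**
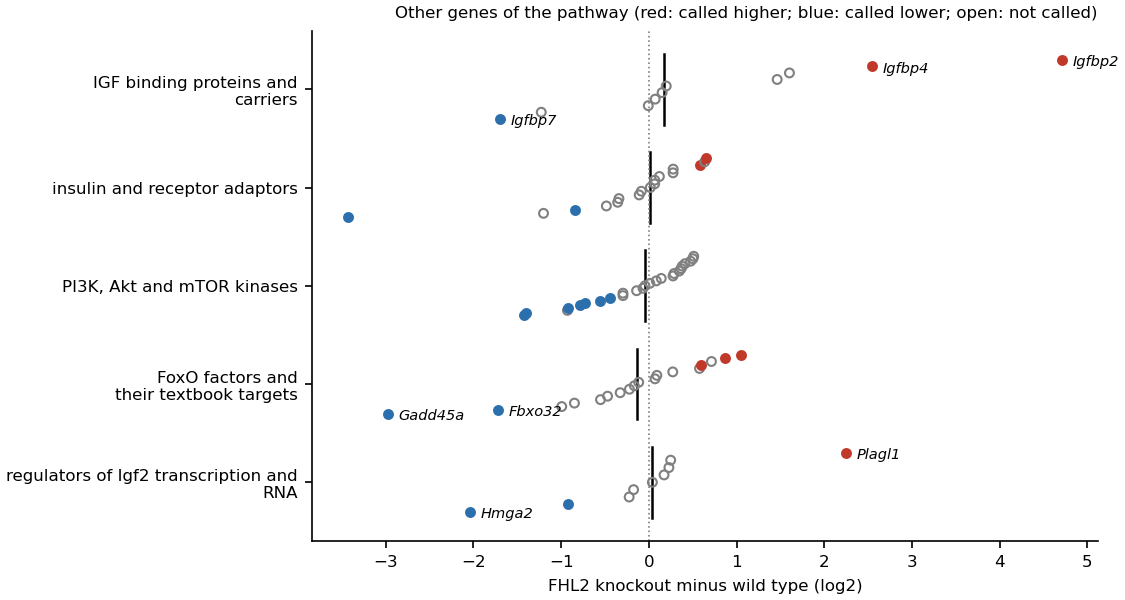
Difference between FHL2 knockout and wild type clones (x axis, log2) for each measured gene of 5 pathway lists (rows), with the median of each list as a black line. Red points were called higher and blue points lower at an adjusted p under 0.05, and open points were not called. Igfbp2 and Igfbp4 lie farthest to the right, and the medians with all clones lie between -0.14 and 0.18. In some of the alternative settings the medians of the other 4 lists changed sign.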

How the data were processed

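Each array was hybridised with biotin-labelled RNA of 1 clone. The deposited values are log2 intensities that the authors made with RMA, per the submitters' processing notes; the sources used here give no version or settings. Arrays have no read depth, and 3 clones per genotype limit the precision (4 residual degrees of freedom, median SE 0.141).

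From 45101 probe sets, 64 controls, 932 with several symbols and 9160 without a gene name were left out. The other 34945 gave 18193 genes, each read by its brightest probe set (mean of all 6 arrays). The comparison of genotypes used lmFit and eBayes of limma 3.58.1 (R 4.3.3), with genotype alone, with Benjamini-Hochberg adjustment over all genes at 0.05, after a test on simulated data. Nothing was filtered for level, and no members or lists were tested as sets. Members and lists were chosen with earlier results of these data known. Named genes were Fhl2, the 10 members and up to 3 called genes of each list by unadjusted p. The 3 genes closest to each of the 3 members that vary most were also named. Others were neighbours, Xist, markers, Pappa2, Grb14 and the remaining called genes of the PI3 kinase and FoxO lists, chosen after their values were seen. Some listed genes were not analysed here. Alternatives were a trended robust prior, other normalizations, a level filter, other probe set rules, array weights and leaving out each clone. Sequences are RefSeq's, on GRCm38.p6; figures used matplotlib 3.10.9.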

Additional observations from a re-analysis of the deposited data

How the results depend on the processing

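Igf1, Igf2 and Irs1 kept their calls in the 8 alternatives that use all clones. Pappa was not called with a trended robust prior (adjusted p = 0.0513). Stc1 was not called after quantile normalization again (-0.86, adjusted p = 0.0543) or with the mean of its probe sets (-0.47, 0.0595), nor Stc2 with the mean of its probe sets (-0.69, 0.186); the causes were not tested. Stc2 lay under the median level and had no value with that filter. The count of 6 called members ran from 2 (without knockout clone J) to 5 in the fits that leave out 1 clone. The count of 3464 called genes ran from 1661 to 4750 in those fits and was 5876 when every probe set was tested, over 34945 probe sets. Igf2r ran from -0.42 to 0.0861 in those fits and changed sign without wild type clone F (0.0861). Of 139 alternative values of the 10 members, 118 kept their direction and their side of the threshold, 19 lost a call, 1 gained a call and 1 changed sign. With the trended robust prior, the level filter and every probe set tested, the difference itself could not change, only its call. No paired analysis was possible because the genotypes share only the clone letter E. Probe sets low on the scale limit what Stc1, Stc2, Insr and the second probe set of Igf2 can show.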
